A study of Drosophila melanogaster with 9 samples.

Results

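Transposon-derived small RNAs in testes of ago3 (t2/t3) mutant flies were compared with those in testes of ago3/TM6 heterozygotes, 1 library each. These are 2 of the 9 libraries of a Drosophila melanogaster series on piRNAs in the male germline, and they were chosen by genotype alone, not by any measured value. The mutant carries the t2 and t3 alleles of ago3 together, and the heterozygote carries a mutant ago3 chromosome, whose allele the label does not name, over the balancer chromosome TM6. Both libraries were made from whole testes dissected by hand, with germ cells from gonialblasts to mature sperm, and the sources used here do not state the flies' age. An aub (N11/HN2) mutant library and an aub/CyO heterozygote library from the same series were set beside them as values only. With 1 library per genotype there was no replicate check and no test, and every interval is a 95% exact binomial interval that covers counting error only. PCR reads without molecular identifiers are not independent molecules. The ago3 RNA itself was not measured, so the genotypes rest on the labels, and no messenger RNA was available to check the tissue against its marker genes.

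Ago3 and Aub are Piwi proteins, Argonaute-family proteins that carry PIWI-interacting RNAs (piRNAs) of 23 to 29 nt and cut the transposon transcripts these match. In the ping-pong cycle described in fly ovaries, Aub carries mostly antisense piRNAs and cuts transposon messenger RNA, the cut ends become sense piRNAs in Ago3, and Ago3 in turn cuts antisense precursors into new piRNAs for Aub. The series addresses how loss of either protein alters the piRNAs of the testis, where, by its design text, they differ in spatial expression.

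Fewer piRNA-sized reads mapped to transposons in the ago3 mutant than in the heterozygote, and the difference was larger for antisense than for sense reads. The mutant library held 37932 transposon-mapping reads of 23 to 29 nt, against 115785 in the heterozygote library. Sense reads numbered 21282 in the mutant and 50020 in the heterozygote, and antisense reads, taken as both strands minus sense, numbered 16650 in the mutant and 65765 in the heterozygote. On the authors' scale, marked as normalised with rfam, whose factors were 1.00454 for the mutant and 1 for the heterozygote, antisense reads were 3.93-fold lower in the mutant (3.87 to 4.0) and sense reads 2.34-fold lower (2.30 to 2.38). Sense reads therefore outnumbered antisense reads in the mutant, at 1.28 sense reads per antisense read, whereas the heterozygote had 0.761. Total piRNA in whole testes depends on both the number of germ cells and the piRNA in each, which cannot be told apart here.

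The sense loss was concentrated at 26 nt, while the antisense loss was spread over all lengths. At 26 nt there were 4380 sense reads in the mutant and 21065 in the heterozygote, which made 4.79-fold fewer (4.63 to 4.95). At the neighbouring lengths the gap was narrower: sense reads of 25 nt numbered 4941 in the mutant and 9455 in the heterozygote, and sense reads of 27 nt numbered 3509 in the mutant and 6075 in the heterozygote. The mutant was 1.90-fold lower at 25 nt and 1.72-fold lower at 27 nt. Across the sense lengths other than 26 nt the mutant was 1.71-fold lower (1.67 to 1.74), between 1.48-fold at 24 nt and 1.90-fold at 25 nt. Reads of 26 nt made up 16685 of the 28738 sense reads by which the mutant library fell short of the heterozygote library, or 58.1%.

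**Figure D1:**
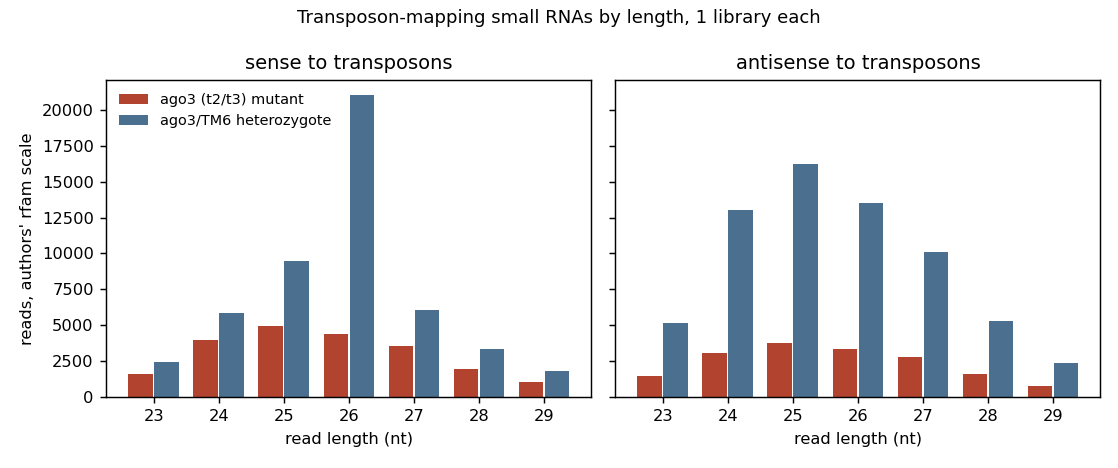
Transposon-mapping reads of each length from 23 to 29 nt (x axis) on the authors' rfam scale (y axis), sense at left and antisense at right. The ago3 (t2/t3) mutant is in red and the ago3/TM6 heterozygote in blue, 1 library each. The tall heterozygote bar of 21065 sense reads at 26 nt stands against 4380 reads in the mutant, while the antisense bars differ by similar factors at every length.

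The heterozygote's sense profile peaked sharply at 26 nt, and the mutant's did not. Sense reads of 26 nt stood at 1.04 times the mean of 25 and 27 nt in the mutant and at 2.71 times in the heterozygote. For antisense reads the same quotient was 1.02 in the mutant and 1.02 in the heterozygote. The most frequent sense length was 25 nt in the mutant and 26 nt in the heterozygote, and the most frequent antisense length was 25 nt in both. The aub heterozygote showed the same kind of sense peak, with a quotient of 2.24, and the aub mutant had 1.15.

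Antisense reads were lower in the mutant by similar factors along the whole size range. At 25 nt, the antisense mode, there were 3735 reads in the mutant and 16225 in the heterozygote, 4.32-fold fewer. The smallest antisense difference was at 29 nt, with 726 reads in the mutant and 2371 in the heterozygote, 3.25-fold fewer. The other antisense lengths lay between these folds, at 3.48 (23 nt), 4.31 (24 nt), 4.05 (26 nt), 3.65 (27 nt) and 3.28 (28 nt). Hence 26 nt was the one length of the 7 at which sense reads were further below the heterozygote than antisense reads.

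**Figure D2:**
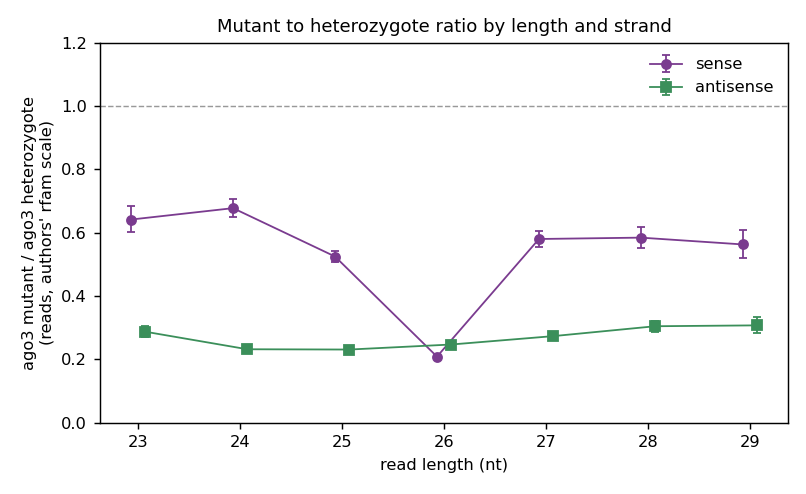
Ratio of the ago3 mutant to the ago3 heterozygote (y axis, reads on the authors' rfam scale) at each read length from 23 to 29 nt (x axis), for sense and antisense reads. Bars are 95% exact binomial intervals, which cover counting error only. Sense ratios lie between 0.525 and 0.678 except at 26 nt, where the ratio is 0.209, and antisense ratios lie between 0.231 and 0.308.

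The strand balance differed accordingly. Antisense reads made up 43.9% of the 23 to 29 nt reads in the mutant (43.4 to 44.4) and 56.8% in the heterozygote (56.5 to 57.1). The aub heterozygote had 49.3%, so the heterozygotes differed by 7.54 points, and against the aub heterozygote the ago3 mutant differed by -5.36 points, where against its own heterozygote it differed by -12.9. Leaving out 26 nt, where the heterozygote has its sense peak, the antisense share was 44.1% in the mutant and 64.4% in the heterozygote. At 26 nt alone the order was the other way, with 43.1% antisense in the mutant and 39.1% in the heterozygote. At the remaining lengths the mutant lay between 41.5% (29 nt) and 48.7% (23 nt), and the heterozygote between 56.5% (29 nt) and 69.1% (24 nt). The ranges of the ago3 libraries did not overlap there. The aub heterozygote lay between 47.2% (29 nt) and 64.0% (23 nt) at these lengths, so its range did overlap the ago3 mutant's.

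Sense reads just outside the piRNA range were also fewer in the mutant, except for the shortest. At 22 nt the ratio on the rfam scale was 0.715 and over 30 to 44 nt it was 0.681, against 0.678 at 24 nt. At 21 nt, the length of small interfering RNAs, there were 2727 sense reads in the mutant and 3409 in the heterozygote, a ratio of 0.804 (0.764 to 0.845). At 20 nt the ratio was 0.918, with an interval of 0.823 to 1.02 that includes 1. The mutant library held more of the shortest reads: 142473 sense reads of 15 to 17 nt against 58728 in the heterozygote, or 82.5% of all sense reads in the mutant and 49.7% in the heterozygote. Reads of 23 to 29 nt were thus 9.93% of the transposon-mapping reads of all lengths in the mutant and 42.2% in the heterozygote. The aub libraries held still more of the shortest reads, at 91.2% of sense reads in the aub heterozygote and 97.0% in the aub mutant. Their reads of 23 to 29 nt were 5.61% of all in the aub heterozygote and 0.696% in the aub mutant. The ago3 heterozygote thus had the lowest share of the shortest reads among these libraries. The part of the difference in read sizes between the ago3 libraries in the piRNA results was not tested.

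By transposon, nearly all elements had fewer small RNA reads in the mutant in the authors' combined table, but by very different factors. Over all read lengths, 54 of the 79 elements with at least 100 reads in that table were instead higher in the mutant. The authors' combined table gives a normalised signal, called the level here, for 86 elements, and every value was a whole multiple of 1 step per library, so reads were worked back as 33018 in the mutant and 102700 in the heterozygote. The table does not say which read lengths it counts, and these totals are 87.0% of the 23 to 29 nt reads in the mutant and 88.7% in the heterozygote. Their summed level was 4.74-fold lower in the mutant (4.68 to 4.80). This table's steps, 0.809789 in the mutant and 1.23489 in the heterozygote, put the mutant 1.53-fold lower relative to the heterozygote than the rfam scale does, and no source used here states what they rest on. Element shares, the percentage of the 86 elements' reads that fall on 1 element, do not depend on that scale and are given beside the levels.

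Of the 79 elements that reached 100 reads, mutant and heterozygote summed, 72 (91.1%) were at least 2-fold lower in level in the mutant, and 0 (0%) were at least 2-fold higher. On the rfam scale, 58 were at least 2-fold lower. The median ratio of mutant to heterozygote level was 0.240, with quartiles of 0.146 and 0.342. The lowest ratio was 0.0114, for the LINE element Ivk, and the highest 0.699, for the BEL-type element 3S18. By share, 12 elements (15.2%) were at least 2-fold lower in the mutant and 12 (15.2%) at least 2-fold higher. The 7 elements under 100 reads were Tc1-2, hopper, I-element, Stalker3T, Q-element, INE-1 and ZAM. I-element, with 8 reads in the mutant and 89 in the heterozygote, lay just below that limit, and HeT-A, with 53 in the mutant and 54 in the heterozygote, just above it.

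**Figure D3:**
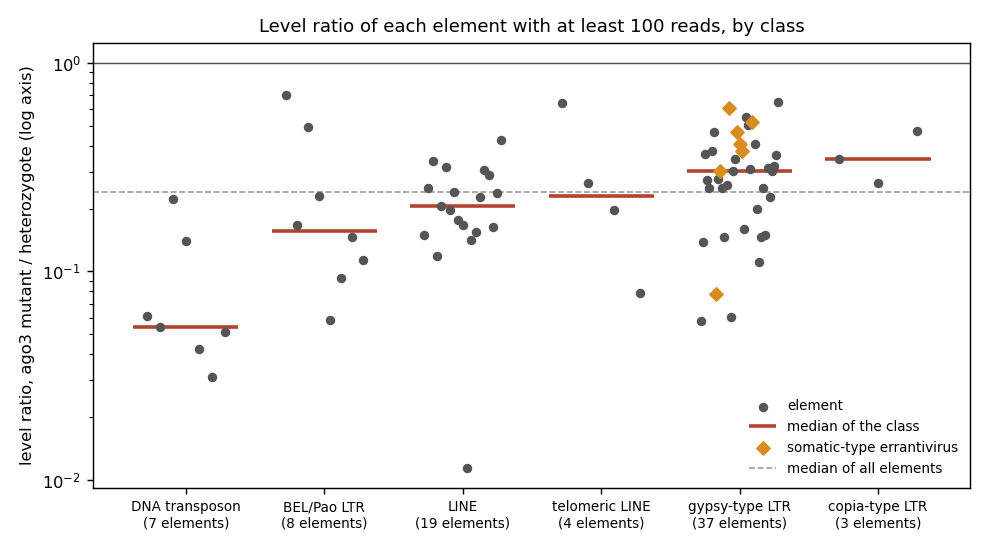
Level ratio of the ago3 mutant to the ago3 heterozygote (y axis, log axis) for 78 elements with at least 100 reads, grouped by class (x axis). The element left out is Dyak-TART, a TART element by name that was in none of the class lists used here. Each point is 1 element, diamonds are somatic-type errantiviruses, red lines are class medians and the dashed line is the median of all elements, 0.240. DNA transposons have the lowest class median, 0.0540, and all points lie below 1 on this scale.

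DNA transposons, which move by cutting and pasting a DNA copy, were furthest below the heterozygote as a class. The 9 measured had 2227 reads in the mutant and 23587 in the heterozygote, and their summed level was 16.2-fold lower (15.5 to 16.9), against 4.74-fold for all 86 elements. All 7 with at least 100 reads were at least 2-fold lower, a share near the 91.1% of all elements, but their median ratio was 0.0540 where that of all elements was 0.240. Most of these reads belonged to the P-type element 1360, also known as hoppel, copies of which lie within the Suppressor of Stellate repeats of the Y chromosome. It had 1827 reads in the mutant and 19698 in the heterozygote, a level 16.4-fold lower in the mutant. That made it 5.53% of the reads in the mutant and 19.2% in the heterozygote, where it was the element with the most reads. It accounted for 25.6% of the reads by which the mutant fell short, and without it the summed level of the other elements was 4.06-fold lower in the mutant.

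Other DNA transposons were as far down as 1360 against the ago3 heterozygote. The Tc1/mariner-type element pogo had 19 reads in the mutant and 401 in the heterozygote, a level ratio of 0.0311 (0.0185 to 0.0492). Bari1, a Tc1-type element, had 90 reads in the mutant and 1092 in the heterozygote, with a ratio of 0.0540. The transposon transib2 had 97 reads in the mutant and 1241 in the heterozygote (0.0513), and hopper2 had 23 in the mutant and 355 in the heterozygote (0.0425). These 4 elements and 1360 were also at least 2-fold lower by share. The exceptions within the class were hobo, at 110 reads in the mutant and 517 in the heterozygote, and S-element, at 55 in the mutant and 163 in the heterozygote, with share ratios of 0.662 for hobo and 1.05 for S-element. Tc1-2 had 0 reads in the mutant and 44 in the heterozygote, at least 22.4-fold lower against a floor of 3 reads. The Bari1 result depended on the reference library. The aub heterozygote had 249 Bari1 reads, and against it the ago3 mutant's level ratio was 0.322 and its share ratio 0.919 (0.714 to 1.17). Against that library the level ratios of the other 4 were 0.117 (1360), 0.0386 (pogo), 0.146 (transib2) and 0.0826 (hopper2).

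LTR retrotransposons of the BEL/Pao group were spread over most of the range. Their 8 members had a median ratio of 0.157, and 7 were at least 2-fold lower in level, close to the 91.1% of all elements. The element roo, one of the most numerous LTR elements of the fly genome, had 1029 reads in the mutant and 4595 in the heterozygote, a ratio of 0.147 (0.137 to 0.157). Dsim-ninja had 935 reads in the mutant and 3685 in the heterozygote (0.166), and the related aurora-element had 512 in the mutant and 1464 in the heterozygote (0.229), and reads of such related elements may be split between them. At the low end stood diver, with 16 reads in the mutant and 180 in the heterozygote (0.0583), and at the high end 3S18 and Max-element. 3S18 had 160 reads in the mutant and 150 in the heterozygote, and is the only one of the 79 elements with more mutant reads before scaling. Max-element had 307 reads in the mutant and 411 in the heterozygote, a ratio of 0.490 (0.421 to 0.569).

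LINE retrotransposons, which copy themselves by reverse transcription at the target site and have no LTRs, lay close to the elements as a whole. All 19 with at least 100 reads were at least 2-fold lower in level, near the 91.1% of all elements, with a median ratio of 0.205, and 17 of them kept a share within 2-fold of the heterozygote's. The most abundant LINE was baggins, with 1913 reads in the mutant and 7653 in the heterozygote, a ratio of 0.164 (0.156 to 0.172). R1A1-element, which inserts into the ribosomal RNA genes, had 782 reads in the mutant and 3311 in the heterozygote (0.155). F-element, Doc and G2, also among the 10 elements with most heterozygote reads, were less reduced than baggins and R1A1-element. F-element had 1599 reads in the mutant and 3320 in the heterozygote (0.316), and Doc had 1535 in the mutant and 2977 in the heterozygote (0.338). G2 had 787 in the mutant and 2153 in the heterozygote (0.240, the median of all elements). These ratios also depended on the reference library. Against the aub heterozygote the F-element ratio was 0.980, with an interval of 0.912 to 1.05. The others were 0.652 (Doc), 0.363 (G2), 0.361 (baggins) and 0.232 (R1A1-element) against that library. LINEs with fewer reads lay on both sides, such as Doc2-element (0.119), BS (0.150), jockey (0.237) and X-element (0.290). Ivk had 3 reads in the mutant and 172 in the heterozygote, and its ratio of 0.0114 has an interval of 0.00234 to 0.0340.

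The telomeric LINEs, HeT-A and the TART elements, maintain fly chromosome ends in place of telomerase repeats, and they differed among themselves. TART-C had 13 reads in the mutant and 108 in the heterozygote, a ratio of 0.0789 (0.0407 to 0.141). TART-B had 32 reads in the mutant and 107 in the heterozygote (0.196), and TART-A had 251 in the mutant and 619 in the heterozygote (0.266). HeT-A had 53 reads in the mutant and 54 in the heterozygote, a ratio of 0.644 (0.432 to 0.958), exceeded among the 79 elements by 3S18 and springer alone. Of the 4, 3 were at least 2-fold lower in level, against 91.1% of all elements, and their median ratio was 0.231. That median was 0.868 with the aub heterozygote in place of the ago3 heterozygote, and on the rfam scale the HeT-A ratio was 0.986. The TART elements resemble each other in sequence, so their reads may be split between them. Dyak-TART, a TART element by name, was in none of the class lists used here and is not among the 4. Its level ratio was 0.123.

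Copia, the founding member of its LTR group, was the element with the most reads in the mutant. It had 3640 reads in the mutant and 5087 in the heterozygote, which was 11.02% of the mutant reads (10.7 to 11.4) and 4.95% of the heterozygote reads (4.82 to 5.09). Its level was nonetheless lower in the mutant, with a ratio of 0.469 (0.450 to 0.490). The other copia-type elements, 1731 and Dm88, had ratios of 0.348 and 0.267. All 3 were at least 2-fold lower in level, against 91.1% of all elements, and 1 of 3 was at least 2-fold higher by share, against 15.2%.

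**Figure D4:**
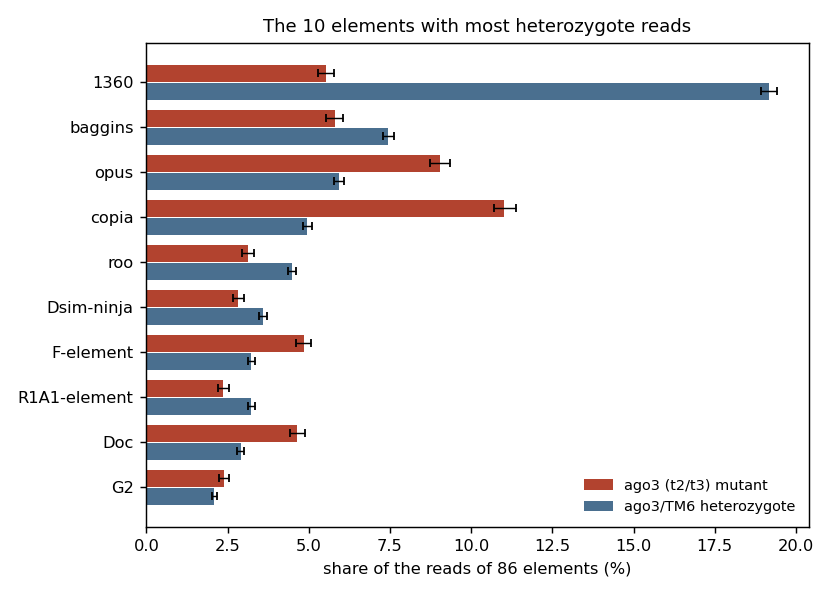
Share of the reads of 86 elements (x axis, %) for the 10 elements with most reads in the heterozygote (y axis). The ago3 (t2/t3) mutant, in red, is above the ago3/TM6 heterozygote, in blue; error bars are 95% exact binomial intervals for counting error. The share of 1360 is 5.53% in the mutant and 19.2% in the heterozygote, and that of copia 11.02% in the mutant and 4.95% in the heterozygote.

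Gypsy-type LTR retrotransposons, the largest class, took a larger part of what was left. Their 38 members made up 41.4% of the reads in the mutant and 31.3% in the heterozygote, and their summed level was 3.58-fold lower. Of the 37 with at least 100 reads, 32 were at least 2-fold lower in level, against 91.1% of all elements. By share, 7 were at least 2-fold higher and 3 at least 2-fold lower, each against 15.2% of all elements, so these counts do not set the class apart. The most abundant, opus, had 2981 reads in the mutant and 6087 in the heterozygote, a ratio of 0.321 (0.307 to 0.336). It was 9.03% of the mutant reads and 5.93% of the heterozygote reads.

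The extremes of the gypsy-type class were far apart. Springer had 142 reads in the mutant and 143 in the heterozygote, a level ratio of 0.651 (0.513 to 0.827), and gypsy2 had 318 in the mutant and 378 in the heterozygote (0.552). Gypsy3 had 295 reads in the mutant and 385 in the heterozygote (0.502), and HMS-Beagle2 had 700 in the mutant and 982 in the heterozygote (0.467). In contrast, 17.6 had 66 reads in the mutant and 749 in the heterozygote, a ratio of 0.0578 (0.0442 to 0.0744), and accord had 20 in the mutant and 217 in the heterozygote (0.0604). Both 17.6 and accord lay near the DNA transposons rather than near their own class median of 0.303.

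Among the gypsy-type elements, 8 errantiviruses have been described as targets of the piRNAs of somatic cells in the fly ovary, several of them controlled there by the flamenco piRNA cluster. They made up 6.31% of the reads in the mutant (6.05 to 6.57) and 3.92% in the heterozygote (3.81 to 4.04), and their summed level was 2.95-fold lower in the mutant (2.80 to 3.11). Of the 7 with at least 100 reads, 5 were at least 2-fold lower in level, against 91.1% of all elements, and the median ratio was 0.408. Tabor had 411 reads in the mutant and 444 in the heterozygote (0.607), and gtwin had 684 in the mutant and 967 in the heterozygote (0.464). Gypsy had 94 reads in the mutant and 151 in the heterozygote (0.408), gypsy10 had 138 in the mutant and 239 in the heterozygote (0.379), and gypsy5 had 57 in the mutant and 72 in the heterozygote (0.519). Quasimodo had 555 reads in the mutant and 1202 in the heterozygote (0.303), and ZAM, with 37 reads in the mutant and 58 in the heterozygote (0.418), fell short of 100 reads.

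Idefix departed from this group. It had 106 reads in the mutant and 897 in the heterozygote, a ratio of 0.0775 (0.0628 to 0.0949), which lies below the intervals of the other 7 somatic-type elements. By share it was at least 2-fold lower, while Tabor, gtwin and gypsy5 were at least 2-fold higher.

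The aub libraries of the same series gave a different order of elements. Among 72 elements with at least 100 reads in the aub pair, 54 (75%) were at least 2-fold lower in level in the aub mutant than in the aub heterozygote and 0 (0%) at least 2-fold higher. By share, 35 (48.6%) were at least 2-fold lower and 21 (29.2%) at least 2-fold higher there. Over the 69 elements with 100 reads in each pair and at least 1 read in the aub mutant, the ago3 and aub log2 level ratios had a Pearson r of 0.46 and a Spearman rho of 0.55, given as a description across elements of 4 single libraries. The aub ratio was the lower one for 45 of these elements and the higher one for 24. The intervals were apart for 35 elements with the lower aub ratio and for 18 with the higher, and all 18 of the second kind were gypsy-type elements. Gypsy-type elements were 37 of the 79 with at least 100 reads in the ago3 pair and 36 of the 72 in the aub pair. Which pair has the lower ratio depends on the steps. They were 0.809789 and 1.23489 in the ago3 pair and 1.11111 and 0.909091 in the aub pair, mutant first. The rfam factors were 1.00454 and 1 in the ago3 pair and 1.04043 and 1.0479 in the aub pair. The counts of lower and higher aub ratios were not recomputed on the rfam scale.

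Several elements named above changed places between the pairs. The level ratio of Idefix was 0.0775 in the ago3 pair and 0.762 in the aub pair, and that of 17.6 was 0.0578 in the ago3 pair and 0.227 in the aub pair. Conversely, 3S18 had 0.699 in the ago3 pair and 0.111 in the aub pair, and copia had 0.469 in the ago3 pair and 0.0554 in the aub pair. Summed over the 8 somatic-type elements, the level was 2.95-fold lower in the ago3 mutant and 1.30-fold lower in the aub mutant. Those folds rest on each pair's own steps, and part of the gap between them comes from the steps. Before scaling, these elements had 2082 reads in the ago3 mutant and 4030 in its heterozygote. The aub mutant had 1803 and its heterozygote 2859. By share they were 6.31% and 3.92% in the ago3 pair, and 21.4% and 3.41% in the aub pair, mutant first. The DNA transposons were the class with the lowest median in both pairs, at 0.0540 in the ago3 pair and 0.00581 in the aub pair. These differences between pairs were not tested.

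**Figure D5:**
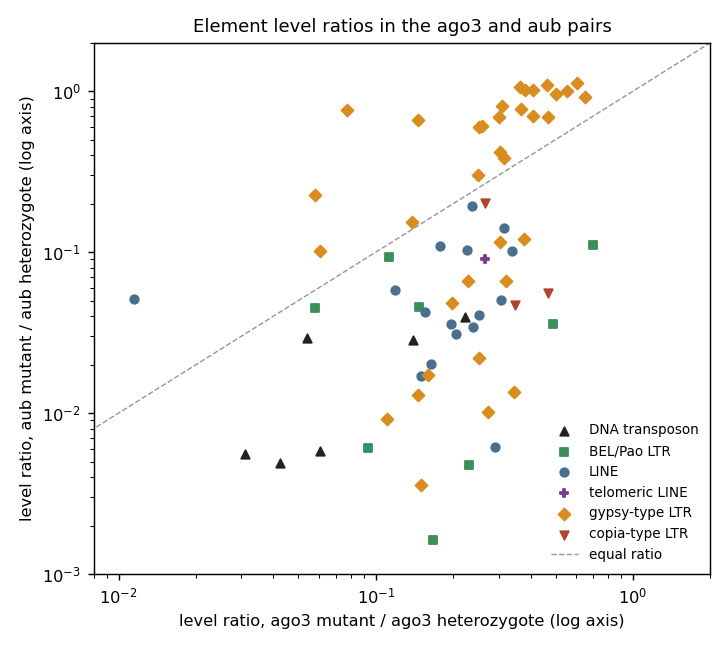
Level ratio of the ago3 mutant to the ago3 heterozygote (x axis) and of the aub mutant to the aub heterozygote (y axis), both log axes, for 69 elements, with symbols by class. The dashed line marks equal ratios on the combined table's steps, which differ between the pairs, so the side on which an element lies depends on them. Of the 24 elements above the line, 18 have intervals apart in the pairs and all 18 are gypsy-type. Gypsy-type elements are 36 of the 72 with at least 100 reads in the aub pair. DNA transposons such as pogo (0.0311 in the ago3 pair, 0.00557 in the aub pair) lie at the lower left.

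As a gauge of how far libraries of different stocks can differ without loss of both copies, the ago3 heterozygote was set against the aub heterozygote. Of 85 elements with at least 100 reads in that pair, 34 (40%) were at least 2-fold higher in level in the ago3 heterozygote and 0 (0%) at least 2-fold lower. The combined table's steps are reciprocal in the ago3 pair, with a product of 1. In the aub pair they are 1.11111 for the mutant and 0.909091 for the heterozygote. On these steps, levels of the heterozygotes stand 1.42-fold further apart than on the rfam scale, where 17 were higher and 3 lower. By share, 10 (11.8%) were at least 2-fold higher and 5 (5.88%) at least 2-fold lower. The standard deviation of the log2 level ratio across elements was 1.11 for the ago3 mutant over its heterozygote and 0.76 between the heterozygotes. The count of elements past 2-fold by share in the ago3 pair is thus to be read against a sizeable difference between heterozygote stocks, and TM6 and CyO, the stock background and the library cannot be told apart.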

How the data were processed

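Per the labels' protocols, testes were dissected by hand and libraries were built with a TruSeq small RNA kit. Bowtie (version 1) and DESeq2 appear in the submitters' processing notes, with no role given. No source used here gives the build or the aligner settings. The authors deposited, for 86 elements, a normalised signal per library, and per library sheets with other values: reads by length from 15 to 44 nt and reads per transposon over all lengths, each raw and multiplied by a factor.

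All 86 signal values were whole multiples of 1 step per library (tolerance 0.001 reads). Which read lengths it counts is not stated. Its reads came to 87.0% of the mutant's and 88.7% of the heterozygote's 23 to 29 nt total. Columns were used where their head names the library, and 4 antisense columns that name none were left out.

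Ratios are mutant over heterozygote, with 95% exact conditional binomial intervals (scipy 1.17.1, Python 3.11.15), checked on simulated counts. An element was called at a ratio of 2 or more, or 0.5 or less, with at least 100 reads in the pair. A count of 0 was set against a floor of 3 reads. Named elements were the 10 lowest and 10 highest level ratios, the 10 with most heterozygote reads and the 5 with most mutant reads. All elements listed as telomeric or somatic-type were named as well. Elements named outside this rule were chosen after their values were seen. Members, classes and tests were chosen with earlier results of these data known. No set test was made. Alternatives were other length windows, read minimums, folds, scales, the all-length lines and the aub heterozygote as reference. No sequences of elements or proteins were used here.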

Additional observations from a re-analysis of the deposited data

Results flagged for a closer look

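The antisense share of 23 to 29 nt reads moved in opposite directions in the mutants of the series. It was lower by 12.9 percentage points in the ago3 mutant than in its heterozygote (a difference of -12.9) and higher by 34.0 points in the aub mutant than in the aub heterozygote. With 1 library per genotype this difference between the pairs was not tested.

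On the combined table's steps, which differ between the pairs, level ratios stood on opposite sides of 1 in the ago3 and aub pairs for 5 elements with at least 100 reads in each. They were Tabor (0.607 in the ago3 pair and 1.12 in the aub pair), gtwin (0.464 in the ago3 pair and 1.10 in the aub pair), gypsy10 (0.379 in the ago3 pair and 1.02 in the aub pair), gypsy6 (0.407 in the ago3 pair and 1.02 in the aub pair) and rover (0.363 in the ago3 pair and 1.07 in the aub pair). All 5 are gypsy-type elements. That class made up 37 of the 79 elements with at least 100 reads in the ago3 pair and 36 of the 72 in the aub pair. Each aub interval includes 1, such as 0.933 to 1.34 for Tabor and 0.916 to 1.32 for gtwin, and these differences were not tested. The opposite sides depend on the steps. Before scaling, the Tabor ratio was 0.926 in the ago3 pair and 0.917 in the aub pair. That of gtwin was 0.707 in the ago3 pair and 0.899 in the aub pair.

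Sense reads of 15 to 17 nt, which enter no piRNA comparison, were 2.43 times as many in the ago3 mutant library as in the ago3 heterozygote library, in raw reads. At single lengths the normalised ratio was 2.42 (15 nt), 2.54 (16 nt), 2.23 (17 nt), 2.27 (18 nt) and 1.41 (19 nt).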

How the results depend on the processing

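The scale moves the sizes but not the direction of the totals. The level ratio of both strands, 0.329, was 0.320 at 24 to 28 nt, 0.318 at 23 to 27 nt, 0.372 against the aub heterozygote, 0.410 scaled to sense 21 nt reads, 0.343 with the factor of the transposon lines (1.0479 in the ago3 mutant, the same number as the aub heterozygote's rfam factor, so which library it belongs to is in doubt) and 0.215 with that of the combined table. In the same order, the sense ratio (0.427) was 0.411, 0.410, 0.411, 0.532, 0.446 and 0.279, and the antisense ratio (0.254) was 0.249, 0.248, 0.332, 0.316, 0.265 and 0.166. The difference in antisense share, -12.9 points, was -5.36 against the aub heterozygote. That in the sense 26 nt share, -21.5 points, was -22.6 at 24 to 28 nt, -23.0 at 23 to 27 nt and -16.6 against the aub heterozygote.

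The all-length lines change the lengths counted and the factors together. With them, 3 elements were at least 2-fold lower and 22 at least 2-fold higher in level, against 72 and 0, and 7 at least 2-fold lower by share, against 12. Reads of 15 to 17 nt were 82.5% of all sense reads in the mutant and 49.7% in the heterozygote. Their part in this change was not tested. The median ratio of 0.240 became 1.41, and the class medians became 1.46 (gypsy-type), 1.31 (BEL/Pao), 1.33 (LINE), 2.25 (telomeric), 0.952 (copia-type) and 0.571 (DNA transposons). Against the aub heterozygote, whose step comes from another pair, 45 elements were lower and 1 higher in level, the median was 0.398, and the copia-type and telomeric medians were 0.501 and 0.868, with gtwin at 2.36. Tabor (1.45), gypsy2 (1.41), gypsy3 (1.07) and gypsy5 (1.04) also had ratios above 1 against that library. The median was 0.367 on the rfam scale, with 58 elements at least 2-fold lower. At a fold of 1.5, 22 elements were higher by share, and at 3, 3 were. In raw reads throughout, the median was 0.366 in the combined table and 1.34 over all lengths, where 5 elements were at least 2-fold lower and 12 higher. By share 45 of 79 ratios were above 1. Among named elements at least 2-fold lower in level, with ZAM, which has under 100 reads, the share ratio was above 1 for Doc (1.60), F-element (1.498), G2 (1.14), HMS-Beagle2 (2.22), Max-element (2.32), Quasimodo (1.44), TART-A (1.26), ZAM (1.98), copia (2.23), gtwin (2.20), gypsy (1.94), gypsy10 (1.80) and opus (1.52), and the 7 named elements above 0.5 in level had 2.38 to 3.32. The combined table's factor for the length tables and the rfam factor for elements and between heterozygotes, and all-length raw reads, were added after seeing the data. By the rule used, 46 recomputed values for the comparisons themselves stayed the same, 36 moved and 5 were reversed. For single named elements, 12 stayed the same, 82 moved and 14 were reversed. Beyond the scales named, the cause was not tested. No paired analysis was possible because each genotype has 1 library, and leaving out a replicate cannot be done. Depth limits elements with few reads, such as Ivk with 3 mutant reads.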

Other observations

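Over all read lengths the tables list 179 elements, 93 of them outside the 86 of the combined table, and the ranking differed from that of piRNA-sized reads. The gypsy-type element 412 had 37635 reads in the ago3 mutant, the most of any element in that library, and 18039 in the ago3 heterozygote, which is 9.86% of all transposon-mapping reads in the mutant and 6.57% in the heterozygote. In the combined table it had 412 reads in the mutant and 737 in the heterozygote. The element with most reads of all lengths in the heterozygote was 1360, at 0.979% of the reads in the mutant and 8.42% in the heterozygote. Among the 79 elements with at least 100 reads in the combined table, it was one of 3, with Bari1 and hopper2, that were at least 2-fold lower in the mutant over all lengths, and all are DNA transposons. Of the same 79 elements, 54 were higher in the mutant over all lengths and 25 lower.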
